A study of Mus musculus with 2 samples.

Results

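Mitochondria in heart muscle are remodelled by fusion and fission and by the folding of the inner membrane into cristae. Mitofusins join outer membranes, OPA1 joins inner membranes and keeps cristae tight, and the peptidase OMA1 cuts OPA1 and so limits inner membrane fusion. Fission is carried out by the dynamin-related GTPase DRP1, the product of Dnm1l, which receptors in the outer membrane (FIS1 and MFF) bring to the mitochondrion. The MICOS complex, built around mitofilin (the product of Immt) with CHCHD3 and CHCHD6 among its subunits, holds cristae at their junctions with the inner boundary membrane. Cardiomyocytes, which are packed with mitochondria, depend on these proteins for the upkeep of their mitochondrial network.

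The 10 genes described here were taken by name for these roles. No measured value entered the rule, but the set was proposed with earlier results of these data known, so its counts do not come from a set chosen blind to the data. They are Mfn1, Mfn2, Opa1 and Oma1 (fusion and its control), Dnm1l, Fis1 and Mff (fission), and Immt, Chchd3 and Chchd6 (cristae), out of 22882 gene symbols in the data. Each of the 10 had a single row, and none was joined with another gene. Heart RNA was taken from 23 day old C57BL6/J mice of mixed sex, without treatment. Med1fl/fl mice carried floxed Med1 without deletion and served as controls, and csMed1-/- mice carried the same floxed allele with a Cre transgene under the α-MyHC promoter, which is active in cardiomyocytes from late gestation. RNA of 5 hearts was pooled per genotype, and 1 library was made from each pool, so there are no replicates and no test, SE or p-value can be given for any gene below. RNA came from heart tissue with all its cell types, so fewer cardiomyocytes and less RNA per cardiomyocyte cannot be told apart.

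Values are FPKM, fragments mapped to a gene scaled to transcript length and to library size. Being per length, they allow levels of different genes to be set side by side, but only roughly. Control FPKM also went with GC content, with a Spearman's rho of 0.288 across 9174 genes, given as a description. The part of GC content in the levels of the members was not tested. The ratio of a gene is its csMed1-/- FPKM over its control FPKM. A gene was tested, that is set against the 2-fold line, when neither library listed it at 0 and the higher of its values reached 1 FPKM. This left 10489 genes, all 10 members included. The 2-fold line served as the mark for a large difference. The study also counted genes past 2-fold, but its methods include a false discovery rate cutoff in Cuffdiff. No such cutoff was applied here, so counts below are not comparable with those of the study. Med1 itself, whose exons outside the floxed ones can still give reads, had 3.38 FPKM in the control pool and 0.412 FPKM in the csMed1-/- pool (ratio 0.122). The read totals are not known. The size of 1 read, seen as steps between the lowest values, corresponds to a csMed1-/- library 1.38 times as deep as the control, provided that no further scaling was applied.

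In csMed1-/- heart, 7 of the 10 genes were lower and 3 were higher than in control, while 53.2% of all genes tested were lower. Of the 7, 6 were lower by more than 2-fold (Chchd3, Mfn1, Oma1, Opa1, Immt and Mfn2), whereas 18.0% of all genes tested were. None was higher by more than 2-fold, against 13.6% of all genes. Only Chchd3 and Mfn1 were lower by more than 4-fold, a difference that 5.14% of all genes reached. Among the 8 members with 10 FPKM or more in either library, 5 were lower by more than 2-fold, against 16.3% of all genes that abundant. The median log2 ratio of the 10 genes was -1.34, beside -0.07 for all genes tested. Of 6 cardiomyocyte markers 4 were lower and 2 higher, and their summed FPKM was also lower (ratio 0.444). The lower sum rested on Myl2 and Tnni3. Without these, a step chosen after seeing the data, the other 4 summed to 1.02 times their control level. The part of cell type markers in the ratios of the members was not tested.

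The values differed by role. All 3 fusion GTPases (Mfn1, Mfn2 and Opa1) were lower by more than 2-fold, and so was Oma1, whose product limits fusion. None of the 3 fission genes was, although Mff lay at -0.99 and passed the line under 2 of the scalings tried. Their median log2 ratio of 0.19 was that of Dnm1l, at 1.84 FPKM in the control pool and 2.09 FPKM in the csMed1-/- pool. The values of Dnm1l are uncertain, as described below. Of the 3 cristae genes, Immt and Chchd3 were lower by more than 2-fold and Chchd6 was not (median -1.47). No test of a difference between these roles was possible. In the wider lists described below, the median was -0.57 for fusion and inner membrane proteases and -0.36 for fission and division. By more than 2-fold 3 of 10 and 3 of 14 tested genes of these lists were lower, beside 18.0% of all genes tested.

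**Figure D1:**
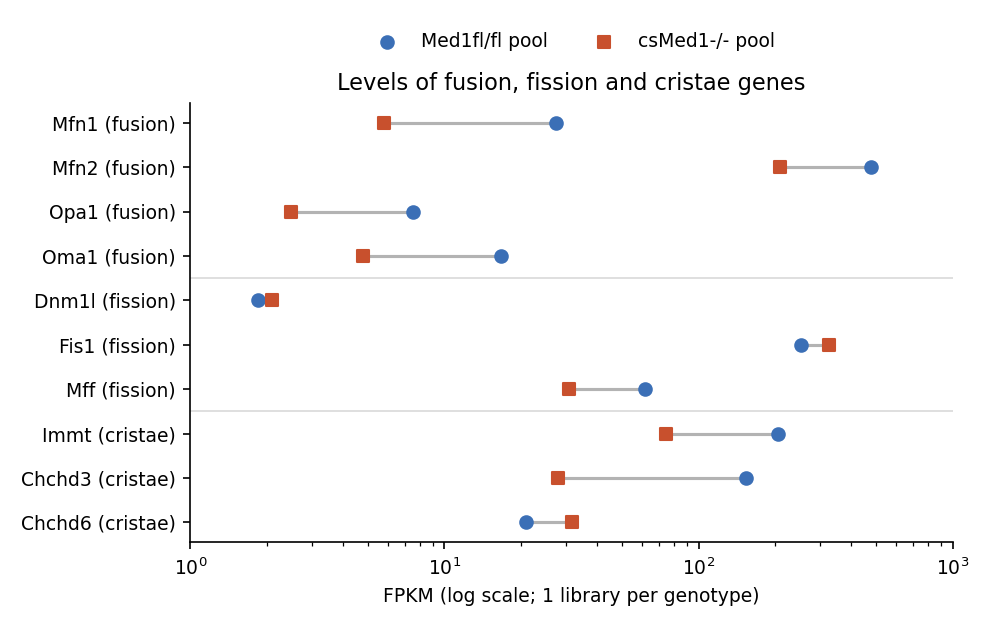
FPKM of the 10 genes (x axis, log scale) in the control pool (circles) and the csMed1-/- pool (squares), 1 library per genotype, grouped by role. Mfn1, Mfn2, Opa1, Oma1, Mff, Immt and Chchd3 lie to the left in csMed1-/- heart, while Dnm1l, Fis1 and Chchd6 lie slightly to the right.

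**Figure D2:**
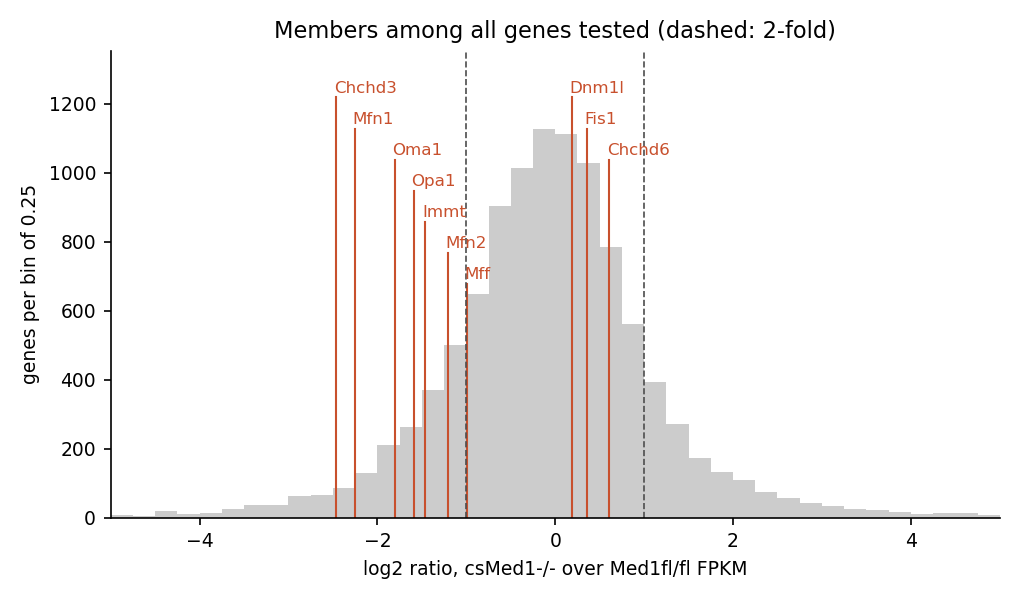
Number of genes per bin of the log2 ratio of csMed1-/- over control FPKM for all 10489 genes tested (bars), with the 10 members marked by vertical lines of arbitrary height. Of the members, 6 lie left of the lower 2-fold line and Mff lies just inside it at -0.99.

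The promoters of the 10 genes were searched for 3 motifs of factors known to act on nuclear genes for mitochondrial proteins, and the stretches that hold a match are shown so that the promoters of lower and of not lower members can be compared. RefSeq windows on GRCm38.p6, from 250 bases before to 50 bases after a gene's start, were found for all 10 genes (15 windows). The motifs were the ETS core CCGGAAG, the NRF1 core GCATGCGC and the ERR site TCAAGGTCA, each searched on both strands as exact letters. The stretches below, 30 bases each and written 5′ to 3′ on the strand of the gene, carry the motif in capitals.
Mfn1 (chr3:32529427-32529456, plus strand, ETS): gatccgaagcgCCGGAAGtagccgccccta
Immt (chr6:71831190-71831219, plus strand, ETS): ccaagcgcgacCCGGAAGgagaacctgccc
Chchd3 (chr6:33060372-33060401, minus strand, ETS): tctcagaggctCCGGAAGccctattaagca
Fis1 (chr5:136953246-136953275, plus strand, ETS): ggaggcaccacCCGGAAGttcaggcttccc
Dnm1l (chr16:16358545-16358574, minus strand, ETS on the opposite strand): gctgtcgcttcCTTCCGGccgctgaggacg
Opa1 (chr16:29579266-29579295, plus strand, NRF1): tggctccccgcGCATGCGCatgtcatccgc

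The ETS core was present in windows of 5 members, of which Mfn1, Immt and Chchd3 were lower by more than 2-fold and Fis1 and Dnm1l were not. Counted by window, 6 of the 15 windows of members hold it, beside 8.86% of all 32851 windows and 16.8% of the 9554 windows of genes tested. In Mfn1 the match began 44 bases before the start, in Fis1 18 bases and in Chchd3 130 bases before it, and in Dnm1l it began 13 bases after it. Immt had a match 119 bases before the start and another, on the opposite strand, 28 bases after it. In Fis1 a second window, at another start of the gene, also held the core. The NRF1 core was found in the window of Opa1 alone, in a palindrome that matched on both strands with overlap, 2.71% of all windows and 5.01% of those of genes tested having it. The ERR site was in no window of a member, and 0.423% of all windows held it. A match is a run of letters and not a measured binding site, and the ETS letters were present both in lower members and in members within 2-fold.

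Gene positions below are on GRCm38 (GENCODE M21), and RefSeq starts can differ from them. Mfn1 and Mfn2 encode the mitofusins, GTPases of the outer membrane that tether and fuse mitochondria, and Mfn2 also links mitochondria to the sarcoplasmic reticulum. Mfn2 (chromosome 4, 147873599 to 147904704, minus strand, 20 exons) was the most abundant of the 10 genes in control heart, at 479 FPKM, and had 208 FPKM in csMed1-/- heart. This is a ratio of 0.435 (log2 ratio -1.20), the smallest difference among the 6 genes past the 2-fold line. Mfn1 (chromosome 3, 32529465 to 32579239, plus strand, 18 exons) had 27.4 FPKM in the control pool and 5.76 FPKM in the csMed1-/- pool. Its ratio of 0.210 (log2 ratio -2.25) was lower than that of Mfn2, and 3.87% of all genes tested had a lower one. The summed FPKM of the pair was 507 in control and 214 in csMed1-/- heart. Mfn2 made up 94.6% of this sum in control and 97.3% in csMed1-/- heart, so most of the mitofusin FPKM came from Mfn2 in both.

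Opa1 encodes the dynamin-like GTPase of the inner membrane, which fuses that membrane and shapes cristae. Opa1 (chromosome 16, 29579334 to 29654884, plus strand, 29 exons) ranked 9 among the 10 members by level in both libraries. It had 7.49 FPKM in the control pool and 2.49 FPKM in the csMed1-/- pool (ratio 0.333, log2 ratio -1.59). Of all genes tested, 47.0% had a lower level than Opa1 in control and 25.7% in csMed1-/- heart. Oma1 (chromosome 4, 103313812 to 103371868, plus strand, 9 exons), the gene of the stress-activated peptidase that cuts OPA1, had 16.7 FPKM in the control pool and 4.79 FPKM in the csMed1-/- pool (ratio 0.287, log2 ratio -1.80). Both the fusion GTPase and its peptidase were thus lower by more than 2-fold. The level of Opa1 over that of Oma1 was 0.450 in control and 0.521 in csMed1-/- heart.

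The 3 fission genes each lay within 2-fold of their control levels, Mff only just (ratio 0.503). Dnm1l (chromosome 16, 16312230 to 16358959, minus strand, 19 exons), which encodes DRP1, had the lowest level of the 10 genes in both libraries, at 1.84 FPKM in the control pool and 2.09 FPKM in the csMed1-/- pool (ratio 1.14, log2 ratio 0.19). Its longest coding transcript had a GC content of 40.9% and was in the lowest of 10 equal groups of genes by GC, whose median control level was 3.03 FPKM, beside 14.7 FPKM in the highest group. The part of GC content in the low level of Dnm1l was not tested. In addition, 243 exon bases of Dnm1l overlap the antisense gene Gm49521, and a processed pseudogene, Gm13719, matches it at 91.2% identity over 1347 aligned bases. Whether the counting used strand is not stated, nor how reads that fit a gene and its copy were assigned, so the values of Dnm1l are uncertain in this respect.

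Fis1 encodes a small tail-anchored protein of the outer membrane that can recruit DRP1. Fis1 (chromosome 5, 136953275 to 136966234, plus strand, 5 exons) had 254 FPKM in the control pool and 326 FPKM in the csMed1-/- pool (ratio 1.29, log2 ratio 0.36). It was second to Mfn2 in control and the most abundant of the 10 genes in csMed1-/- heart. Mff, the gene of mitochondrial fission factor, another receptor for DRP1 (chromosome 1, 82724890 to 82752394, plus strand, 11 exons), had 61.6 and 31.0 FPKM. Its ratio of 0.503 (log2 ratio -0.99) lay just inside the 2-fold line, and scaling to the 75th percentile of each library put it at -1.03, just outside. Mff shares 195 exon bases with C430014B12Rik on the opposite strand. The 2 receptors differed in direction, and Fis1 made up 80.5% of their sum in the control pool and 91.3% in the csMed1-/- pool.

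Mitofilin, encoded by Immt, spans the intermembrane space and is the core of MICOS. Immt (chromosome 6, 71831331 to 71877388, plus strand, 15 exons) had 206 FPKM in the control pool and 74.3 FPKM in the csMed1-/- pool (ratio 0.361, log2 ratio -1.47). It shares 185 exon bases with Gm44771 on the opposite strand, and an annotated pseudogene, Gm19617, matches 315 of its bases at 94.9% identity, so its values carry the same uncertainty. Chchd3 (chromosome 6, 32790976 to 33060260, minus strand, 8 exons), which encodes a small coiled-coil-helix protein that joins mitofilin to the outer membrane assembly machinery, showed the lowest ratio of the 10 genes. It had 154 FPKM in the control pool and 28.0 FPKM in the csMed1-/- pool (ratio 0.182, log2 ratio -2.46), and 331 of the 10489 genes tested had a lower ratio.

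Chchd6 (chromosome 6, 89383146 to 89595652, minus strand, 8 exons) encodes a MICOS subunit related to CHCHD3. It had 20.9 FPKM in the control pool and 31.9 FPKM in the csMed1-/- pool (ratio 1.53, log2 ratio 0.61), the highest ratio of the 10 genes and still within 2-fold. The related pair therefore differed in opposite directions. Chchd3 stood at 7.39 times the level of Chchd6 in control, but at 0.879 times its level in csMed1-/- heart. Chchd6 made up 11.9% of the sum of both in the control pool and 53.2% in the csMed1-/- pool, while the sum itself was 175 and 59.9 FPKM.

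The balance between members was compared within each library, since a ratio of 2 genes of the same library does not depend on how the libraries were scaled. The shift between Chchd3 and Chchd6, by a factor of 8.40, was the largest of the 7 ratios computed. Mfn2 over Mfn1 went from 17.5 in control to 36.2 in csMed1-/- heart. Fis1 over Mff went from 4.12 to 10.5, and Dnm1l over Mff from 0.0298 to 0.0675. Immt over Chchd3 was 1.33 in control and 2.65 in csMed1-/- heart. The ratios that moved least were those of Opa1 over Oma1 and of Dnm1l over Fis1, the latter at 0.00725 in control and 0.00641 in csMed1-/- heart. GC content also moved with the log2 ratios, and the genes of a pair can differ in it. In a step chosen after seeing the data, the median of genes of similar GC content was subtracted from each log2 ratio. Fis1 and Mff were then at 0.28 and -0.67, Mfn2 and Mfn1 at -1.15 and -1.93, and Dnm1l at 0.32. The shifts of Fis1 over Mff, Mfn2 over Mfn1 and Dnm1l over Mff were then within 2-fold. That of Chchd3 over Chchd6, at -2.10 and 0.42, stayed past 2-fold. With 1 library per genotype, the spread of ratios of 2 genes between pools is unknown.

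**Figure D3:**
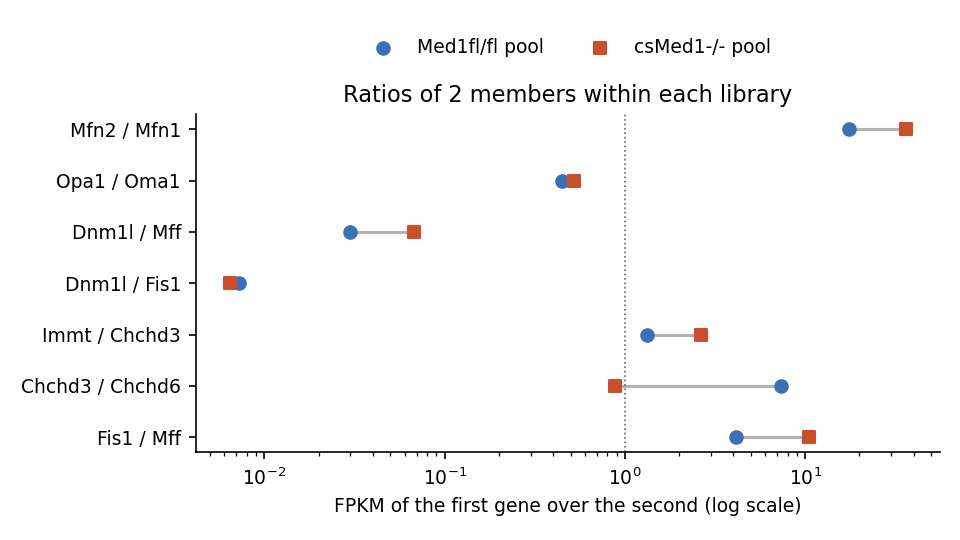
FPKM of one member over that of another within the same library (x axis, log scale), in the control pool (circles) and the csMed1-/- pool (squares), for 7 pairs. The dotted line marks equal levels. Chchd3 over Chchd6 crosses it, from 7.39 in control to 0.879 in csMed1-/- heart.

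Other genes of mitochondrial dynamics and membrane shape were described in lists by function. Across 6 such lists 75 genes were found, of which 68 passed the filter on low values. Of these, 13 (19.1%) were lower and 5 (7.35%) higher by more than 2-fold, beside 18.0% and 13.6% of all genes, and their median log2 ratio was -0.43.

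The list for fusion and inner membrane proteases had 10 genes tested of 13, with a median log2 ratio of -0.57. By more than 2-fold 3 were lower and none was higher, beside 18.0% and 13.6% of all genes tested. Afg3l2, a subunit of the m-AAA protease of the inner membrane, was the lowest, at 32.9 FPKM in the control pool and 9.99 FPKM in the csMed1-/- pool. Fam73b (now Miga2), whose product promotes fusion at the outer membrane, had 45.0 and 14.4 FPKM, and Phb2, a prohibitin that scaffolds the inner membrane and its proteases, had 542 and 239 FPKM. Spg7, the partner of AFG3L2 in the protease, was at the other end of the list, with 68.2 and 95.9 FPKM (log2 ratio 0.49). Yme1l1, the gene of the other protease that cuts OPA1, was below 1 FPKM in both libraries, at 0.487 and 0.860 FPKM, and was not counted.

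Of 17 genes of fission and division, 14 were tested (median log2 ratio -0.36). Mtfp1, an inner membrane protein that acts in division, had the lowest ratio of the list, with 201 FPKM in the control pool and 18.7 FPKM in the csMed1-/- pool (log2 ratio -3.43). It was lower than any of the 10 members. Mtfr1, a regulator of fission, had 9.06 and 3.57 FPKM, and Opa3, a mitochondrial membrane protein, had 67.6 and 29.1 FPKM. The only gene of the list higher by more than 2-fold was Slc25a46, a carrier-like protein of the outer membrane, at 2.86 and 7.30 FPKM summed over its 2 rows. Mief1 and Mief2, listed as Smcr7l and Smcr7, which encode further DRP1 receptors, had log2 ratios of -0.04 and -0.55.

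All 13 tested genes of MICOS, of the sorting and assembly machinery and of cristae were lower in csMed1-/- heart, beside 53.2% of all genes tested, with a median log2 ratio of -0.68. In the comparison lists described below, 35 of 36 complex I subunits and 19 of 24 genes of protein import and folding were lower as well. By more than 2-fold 3 of the 13 were lower, beside 18.0% of all genes. Apoo, an apolipoprotein-like MICOS subunit, had 51.9 FPKM in the control pool and 13.2 FPKM in the csMed1-/- pool (log2 ratio -1.98). Chchd10, a small protein of the intermembrane space, had 2232 and 953 FPKM. Samm50, the outer membrane channel that MICOS contacts, had 256 and 115 FPKM. Mtx1, a metaxin of the same machinery, was the closest to its control level, at 34.0 and 29.2 FPKM (log2 ratio -0.22). The MICOS subunits Apool, Minos1 (now Micos10) and 2410015M20Rik (now Micos13) had log2 ratios of -0.33, -0.31 and -0.48. Chchd6 was thus the only MICOS gene measured here that was higher in csMed1-/- heart.

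The next list holds genes for making and moving cardiolipin, the lipid that stabilizes cristae and OPA1 function, and for the transfer of other lipids. All 11 genes were tested (median log2 ratio -0.33). Past 2-fold 2 were lower and 1 higher, beside 18.0% and 13.6% of all genes tested. Stard7, a lipid transfer protein, had 62.6 FPKM in the control pool and 14.6 FPKM in the csMed1-/- pool, and Lclat1, an acyltransferase that remodels cardiolipin, had 33.7 and 8.15 FPKM. In the other direction, Prelid1, which carries phosphatidic acid across the intermembrane space, had 92.3 and 298 FPKM (log2 ratio 1.69).

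**Figure D4:**
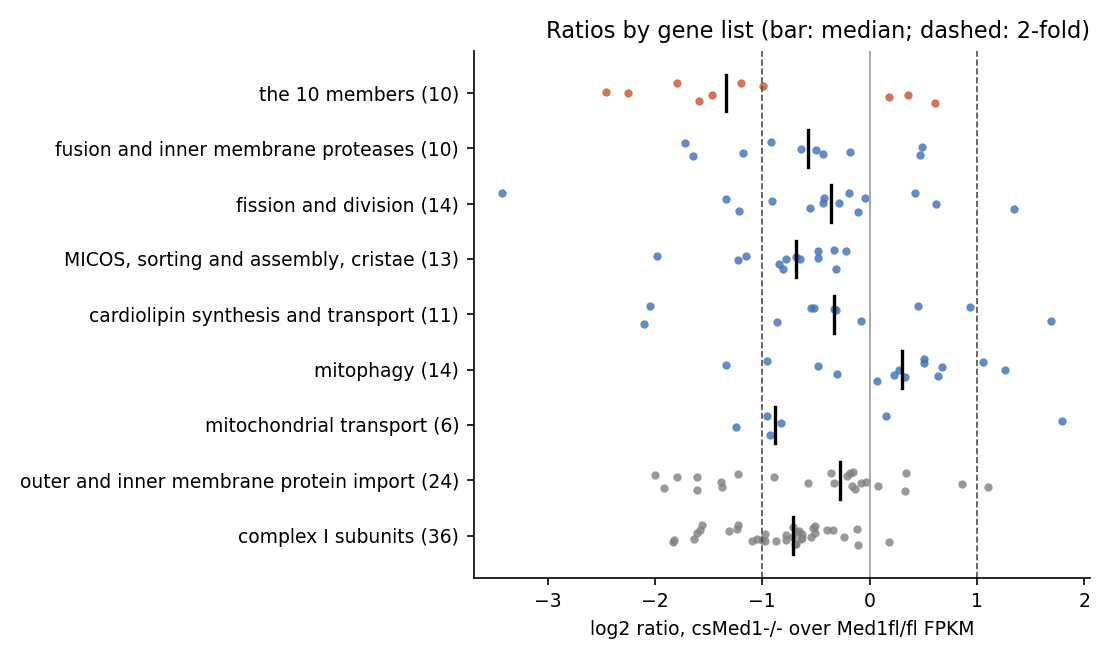
Log2 ratio of csMed1-/- over control FPKM (x axis) for each tested gene of the 10 members and of 8 other lists (number of genes in parentheses), with the median of each list as a bar and the 2-fold lines dashed. Vertical spread within a list is for display only. The members have a median of -1.34, and the lists of complex I subunits and protein import have medians of -0.72 and -0.27.

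For comparison with other nuclear genes for mitochondrial proteins, 36 complex I subunits had a median log2 ratio of -0.72 and ranged from -1.83 (Ndufs1) to 0.18 (Ndufa7). Genes of protein import and folding (24) had a median of -0.27 and ranged from Hspa9, at 99.9 FPKM in the control pool and 25.01 FPKM in the csMed1-/- pool, to Tomm6, at 159 and 342 FPKM. Of each list 33.3% were lower by more than 2-fold, beside 18.0% of all genes tested. Mfn1 and Chchd3 had lower ratios than any gene of either list, and Dnm1l, Fis1 and Chchd6 had higher ratios than any complex I subunit, although Dnm1l exceeded Ndufa7 by less than 0.01. Whether the members differ from these lists was not tested.

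Markers of cell types moved between the libraries as well. Of 8 cardiomyocyte markers, 6 could be tested, of which 3 were lower and none higher by more than 2-fold, and the summed FPKM of the list was 40373 in control and 27752.5 in csMed1-/- heart. Within that list Actc1 and the joined Myh6 and Myh7 row were listed at 0 in control but at 9189 and 647 FPKM in csMed1-/- heart. Cardiac actin at 0 in a control heart goes against the labelled tissue, so a value of 0 in these files may be a failed estimate. Without both rows the sum was 40373 in control and 17917 in csMed1-/- heart (ratio 0.444). The markers did not go one way. Myl2 (20467 and 6571 FPKM) and Tnni3 (10283 and 1537 FPKM) carried the difference in the sum. Tnnt2 (2280 and 1119 FPKM) and Mybpc3 (1410 and 975 FPKM) were lower as well, while Tnnc1 (4647 and 5823 FPKM) and Actn2 (1286 and 1892 FPKM) had higher values. Without Myl2 and Tnni3, a step chosen after seeing the data, the sum was 9623 and 9809 FPKM (ratio 1.02). None of the 10 members had a value of 0. The 8 fibroblast markers summed to 503 and 1193 FPKM, with 4 higher and 1 lower by more than 2-fold, and the 7 endothelial markers to 420 and 318 FPKM, with 1 higher and 3 lower. The 5 smooth muscle markers summed to 723 and 1065 FPKM, with 2 higher and 2 lower. The higher sum came from Cnn1 alone, at 4.32 and 622 FPKM, and the other 4 summed to 719 and 443 FPKM. Of these 4, Tagln was also higher, at 23.8 and 89.7 FPKM, and 3 were lower. The macrophage markers summed to 245 and 230 FPKM, with none of the 5 tested past 2-fold. The 3 red cell rows found summed to 15941 and 24884 FPKM, with 1 higher. The part of these shifts in the ratios of the members was not tested.

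GC content moved with the ratios. Over 9174 genes with a coding transcript in the annotation, the log2 ratio and GC content had a Spearman's rho of 0.205 across genes of the same 2 libraries, given as a description since genes are not independent replicates. The median log2 ratio went from -0.36 in the group of genes by GC that holds Chchd3 to 0.19 in that of Chchd6. After subtraction of these medians, a step chosen after seeing the data, the same 6 members stayed lower by more than 2-fold. Chchd3 was then at -2.10, Mfn1 at -1.93, Oma1 at -1.48, Opa1 at -1.46, Mfn2 and Immt at -1.15, and Mff at -0.67. Dnm1l, Fis1 and Chchd6 were at 0.32, 0.28 and 0.42. No other processing choice tried changed the direction of a member.

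**Figure D5:**
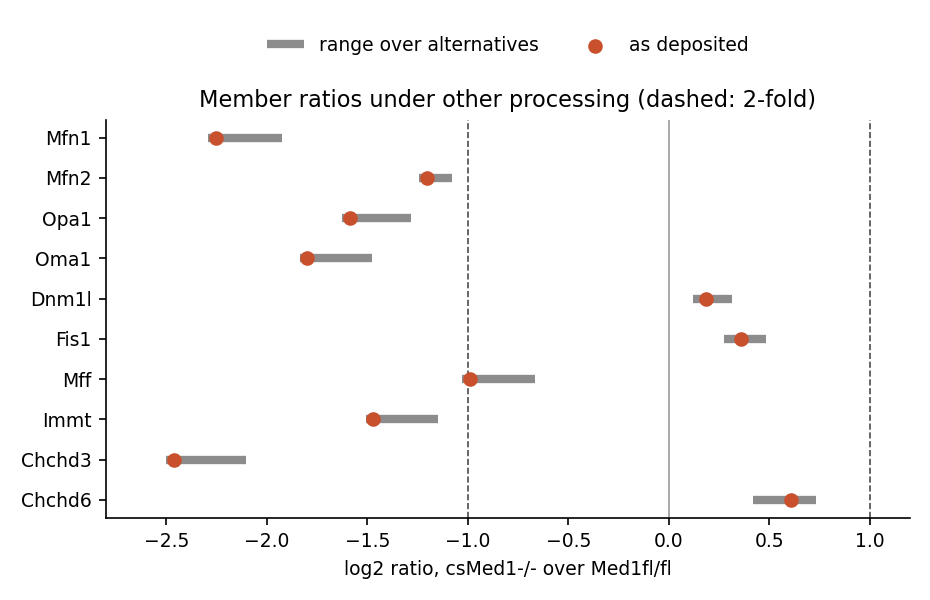
Log2 ratio of csMed1-/- over control for the 10 members (points) with the lowest to highest value over the alternative settings (bars), and the 2-fold lines dashed. Mff is the only member whose bar crosses a 2-fold line, from -1.03 to -0.67, and no bar crosses 0.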

How the data were processed

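Pooled heart RNA (5 mice per genotype, 1 library each) was enriched for mRNA with oligo-dT and sequenced as directional 50 bp single-end reads. Per the study's methods, the authors aligned reads to mm10 with TopHat 2.0.8b and computed FPKM of known genes with Cufflinks 2.1.1 and Cuffdiff. The submitters' processing notes list TopHat and Cuffdiff and also others with no stated role, among them the aligner STAR 2.4.0h, so which of them made the files is not settled. The deposited FPKM values were used as they stand, and the library scaling inside Cuffdiff is not given in the sources used here. Rows sharing a symbol were summed. FPKM without counts gives no interval or detection limit. With 1 library per genotype no test was run.

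Gene positions, lengths and GC content came from GENCODE M21 (GRCm38, the same assembly as mm10), using the longest protein-coding transcript of a symbol. Near-identical copies were sought with BLAST 2.17.0 among its transcripts, at 90% identity or more over at least 150 bases. Promoter windows came from RefSeq (GRCm38.p6). Computation used pandas 2.3.3 and numpy 2.4.6 in Python 3.11.15, with figures from matplotlib 3.10.9, and was tested on simulated data.

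The members (by function) and lists were chosen with earlier results of these data known. Named were all 10 members, Med1, and from each pathway list the genes past 2-fold and the highest and lowest ratio; Yme1l1, Mief1, Mief2, the remaining MICOS subunits, Pink1, Rhot1, Trak1 and Trak2 were added after their values were seen. Of lists for comparison only the ends were named. Alternatives were pseudocounts of 0.1 and 1, other filters on low values, 4 scalings, the highest row of a symbol, thresholds of 1.5-fold and 4-fold, each member left out, and centring by GC content.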

Additional observations from a re-analysis of the deposited data

How the results depend on the processing

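No paired analysis was possible because each genotype has 1 library, and for the same reason no library could be left out. Centring by GC content was chosen after seeing the data. The count of members lower by more than 2-fold was 6, and it lay between 5 and 7 under every alternative filter, pseudocount, scaling and choice of rows tried. It was 7 where libraries were scaled to the 75th percentile or the 100 highest genes were left out of the library sums, which took Mff to -1.03 and -1.01. It was 5 of 8 among genes at 10 FPKM or more, a filter that removes Opa1 and Dnm1l. At a 4-fold threshold 2 members were lower, and at 1.5-fold 7 were lower and 1 (Chchd6) was higher. The median log2 ratio of the members stayed past the 2-fold line under all these alternatives and with each member left out in turn. Of 108 ratios of single members recomputed, none changed sign and 2, both of Mff, changed side of the 2-fold line. Scaling each library to the same FPKM sum raised the median of all genes by 0.12 and with it each member. In the other lists, of counts recomputed at 2-fold, 0 of 80 for lower and 6 of 80 for higher genes moved by over 1.5 times. A pseudocount of 1 brought the shift of Mfn2 over Mfn1 from past 2-fold to a log2 value of 0.87. Centring by GC content brought this shift and those of Fis1 over Mff and Dnm1l over Mff within 2-fold. In all genes, 3309 differed by more than 2-fold, a number that was 5686 with no filter, 1706 at 10 FPKM or more, 5608 at a 1.5-fold and 992 at a 4-fold threshold. The depth behind single values is unknown, which bears most on Dnm1l and Opa1.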

Other observations

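Damaged mitochondria are removed by mitophagy, and the 14 genes of a mitophagy list had a median log2 ratio of 0.30. By more than 2-fold 2 of the 14 were higher and 1 was lower, beside 13.6% and 18.0% of all genes tested. Gabarapl1, an autophagosome protein of the LC3 family, had 51.5 FPKM in the control pool and 124 FPKM in the csMed1-/- pool, and Fkbp8, a receptor of the outer mitochondrial membrane, had 165 and 344 FPKM, both past 2-fold. Bcl2l13, another receptor of that membrane, was lower by more than 2-fold, at 27.0 and 10.7 FPKM. Pink1, the kinase that marks depolarized mitochondria, had 607 and 314 FPKM, within 2-fold at a log2 ratio of -0.95. No test of this list against the fusion genes was made.

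Genes that carry mitochondria along the cytoskeleton (6) had a median log2 ratio of -0.88. Past 2-fold 1 was lower and 1 higher, beside 18.0% and 13.6% of all genes tested. The joined row of Rhot2, a Miro GTPase, and its neighbour Wdr90 had 132 and 55.9 FPKM, and the values of the pair cannot be told apart. Rhot1, Trak1 and Trak2 had log2 ratios of -0.96, -0.83 and -0.93. Kif5b, a kinesin heavy chain, was higher, at 0.623 and 2.16 FPKM, and was the only gene of this list higher by more than 2-fold. It was within 2-fold once a pseudocount of 1 was added.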
